A study of Mus musculus with 12 samples.

Results

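The 10 genes described here belong to the NRF2 oxidant response and to the thioredoxin, peroxiredoxin and catalase systems of mouse peritoneal macrophages. They are Nfe2l2, Keap1, Txn1, Txnrd1, Srxn1, Prdx1, Prdx6, Cat, Nqo1 and Hmox1, taken by symbol from a count table of 55586 genes, and all 10 were among the 13474 genes with enough reads to be tested. RNA sequencing was done on 12 libraries in 4 groups of 3: untreated control cells, cells given interferon gamma (IFN-γ, a cytokine that activates macrophages), cells given Remodelin hydrobromide (an inhibitor of the acetyltransferase NAT10), and cells given Remodelin and then IFN-γ, called the combined group below. The cells of all groups were cultured in medium 1640 with fetal bovine serum and antibiotics. The labels give no strain, sex or age of the mice, no genotype, dose, treatment time, day or batch. They also do not say whether replicate libraries are separate cultures or mice, so the p-values cover the spread among libraries alone, and that spread may be technical.

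NRF2, the protein made from Nfe2l2, is a transcription factor that KEAP1 normally holds in the cytoplasm and sends for degradation. Oxidants and electrophiles modify KEAP1, after which NRF2 accumulates without needing more of its mRNA and binds antioxidant response elements beside genes for detoxifying and thiol-based enzymes. In macrophages these enzymes limit the damage from the cells' own oxidant burst: peroxiredoxins and catalase break down hydrogen peroxide, and thioredoxin, thioredoxin reductase and sulfiredoxin keep peroxiredoxins in working form.

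Promoter sequence is shown for the 2 genes that rose with Remodelin, Prdx1 and Cat, and for thioredoxin reductase, the member with several annotated starts, so that the presence or absence of an antioxidant response element core can be read beside the counts. The sequences are the 250 bases before the start in RefSeq promoter windows on GRCm38.p6, which reach 50 bases past the start. The windows are chr4:116685349-116685648 on the plus strand for Prdx1, chr10:82858956-82859255 on the plus strand for 1 of the 3 Txnrd1 starts, and chr2:103485104-103485403 on the minus strand for Cat. Each is written 5′ to 3′ in the direction of the gene, and capitals mark a match to the core TGACNNNGC or its reverse complement.
Prdx1: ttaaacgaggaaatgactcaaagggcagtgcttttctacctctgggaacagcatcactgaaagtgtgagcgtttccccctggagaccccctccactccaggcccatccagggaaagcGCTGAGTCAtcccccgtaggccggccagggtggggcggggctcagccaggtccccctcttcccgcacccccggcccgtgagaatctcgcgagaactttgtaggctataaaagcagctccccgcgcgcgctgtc
Txnrd1: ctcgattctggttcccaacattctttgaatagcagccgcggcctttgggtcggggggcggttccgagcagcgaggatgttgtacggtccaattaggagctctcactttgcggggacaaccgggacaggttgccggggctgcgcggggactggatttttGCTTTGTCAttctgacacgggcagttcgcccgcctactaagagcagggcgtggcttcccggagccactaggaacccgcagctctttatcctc
Cat: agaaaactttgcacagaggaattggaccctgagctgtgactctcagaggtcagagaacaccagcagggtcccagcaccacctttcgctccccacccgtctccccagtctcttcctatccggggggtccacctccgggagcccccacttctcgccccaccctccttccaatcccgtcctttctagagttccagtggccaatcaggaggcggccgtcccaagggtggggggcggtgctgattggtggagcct
The core was searched on both strands of the whole windows. Promoter entries matched 8 of the 10 genes, all but Hmox1 and Prdx6, and 4 of these 8 held a match: Prdx1 (TGACTCAGC on the minus strand at -133), Txnrd1 in 1 of 3 windows (TGACAAAGC on the minus strand at -92), Nfe2l2 (TGACTCCGC on the plus strand at -240) and Srxn1 (TGACCTAGC on the minus strand at 29). No match was found in the windows of Cat, Keap1, Nqo1 and Txn1. Among all RefSeq windows of this length 4071 of 32851 held the core (12.4%), and by gene 3781 of 27025 (14%). A match is a description of these letters and not a binding site.

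The abundance of the 10 transcripts per gene length spanned a wide range, read from the authors' FPKM values (fragments scaled to gene length and library size). Prdx1 was highest in control cells, at 1007 ± 230 FPKM (mean ± SD, n = 3 libraries here and below), followed by Txn1 at 543 ± 61.9, the inducible heme oxygenase Hmox1 at 211 ± 14.9 and the sulfiredoxin gene Srxn1 at 79.8 ± 7.9. The control libraries of these 4 genes did not overlap with those of the next gene in order. Txnrd1 (27.2 ± 3.03), Cat (27.1 ± 3.39), Nfe2l2 (26.5 ± 3.16) and Prdx6 (24.7 ± 2.47) formed a group whose neighbours in the order overlapped. The order depends on the gene length used. That length was 7086 bases for Txnrd1, whose longest transcript has 3622, and 4804 for Prdx6, whose longest has 2558. For Cat both were 2613. Keap1 followed at 13.9 ± 1.33 FPKM and the quinone reductase Nqo1 was lowest at 3.6 ± 0.602 FPKM. Nqo1 therefore rested on 61 to 120 reads per library, whereas the least-read library of Prdx1 held 45624.

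**Figure D1:**
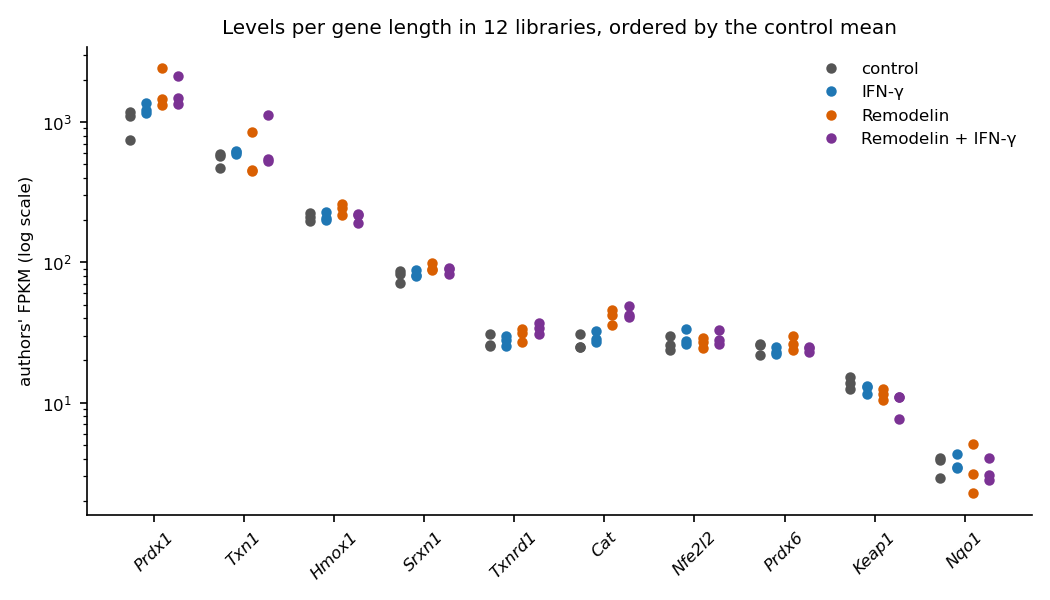
FPKM of each gene in each of the 12 libraries, on a log scale, with genes ordered by their control mean and each point 1 library. Prdx1 is at the top with values from 745 to 2413 FPKM, and Nqo1 at the bottom with values from 2.26 to 5.06 FPKM.

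Totals ran from 15917454 to 19418665 counts per library. Levels in CPM are read counts scaled to library size by the TMM method. On the totals without TMM scaling, 3 counts equal 0.154 to 0.188 CPM. The spread between libraries of a group was 18.6% as the common biological coefficient of variation. Libraries also differed in a trend with GC content that partly followed the groups: the Spearman correlation across genes between a library's deviation and GC content was 0.123 to 0.55 in control, -0.168 to 0.218 with IFN-γ, -0.373 to 0.264 with Remodelin and -0.69 to -0.115 in the combined group. The correlation with transcript length differed within groups, from -0.292 to 0.46 in control and from -0.473 to 0.392 with Remodelin. The macrophage genes Adgre1, Csf1r, Cd68 and Lyz2 were read in every library. Timd4, a marker of resident macrophages, was at 0 in 7 libraries and reached at most 0.116 CPM. Gata6, another marker in the same list, read 9.54 to 19.5 CPM and was at 0 in 0 libraries. In the average Remodelin effect 0 of 8 tested macrophage markers were called, against 7.04% of all tested genes. Fewer cells of a type and less RNA per cell cannot be told apart in such bulk samples.

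Remodelin was compared with its absence in cells without IFN-γ, in cells with IFN-γ, and as the average of both comparisons. The average was taken up with earlier results of these data known. Cat, the gene for the hydrogen peroxide-degrading enzyme catalase, and Prdx1, which encodes an abundant thiol peroxidase, rose in the average, each 1.49-fold. None of the other 8 genes passed the test in the average, and these had log2 fold changes from -0.32 (Keap1) to 0.22 (Txnrd1). The test was edgeR's quasi-likelihood test with Benjamini-Hochberg adjustment over all 13474 genes, and a gene was called at an adjusted p under 0.05. In the average, 2 of 10 were called, both higher, against 7.04% of all tested genes in either direction and 2.24% higher. That background moved with single libraries: leaving out 1 at a time, 304 (without control 2) to 2025 genes (without Remodelin 1) were called and 80 (without IFN-γ 1) to 948 (without Remodelin 1) were higher, beside 949 and 302, and 1 to 2 members were called. The median log2 fold change was 0.10 over the 10 genes and 0.03 over all tested genes. Of the 10, 7 were above 0, beside 7191 of all 13474 tested genes.

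Within either single comparison no member was called by edgeR. Without IFN-γ, 0 of 10 passed against 0.846% of all tested genes. With IFN-γ, 0 of 10 passed against 0.364%. At an unadjusted p under 0.05 there were 2 members in each comparison, beside 1708 of 13474 tested genes without IFN-γ and 2180 with it. DESeq2 called 1 member in each, which was Cat, beside 269 genes without IFN-γ and 264 with it. Groups of 3 did not overlap for 4 of 10 genes without IFN-γ (Cat, Prdx1 and Srxn1 higher, Keap1 lower), where 16.4% of all tested genes did not overlap, and for 3 of 10 with IFN-γ (Cat and Txnrd1 higher, Keap1 lower), where the share was 27.8%. Across all 6 libraries with and all 6 without Remodelin, 1 of 10 did not overlap, namely Cat, against 4.65% of all tested genes.

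**Figure D2:**
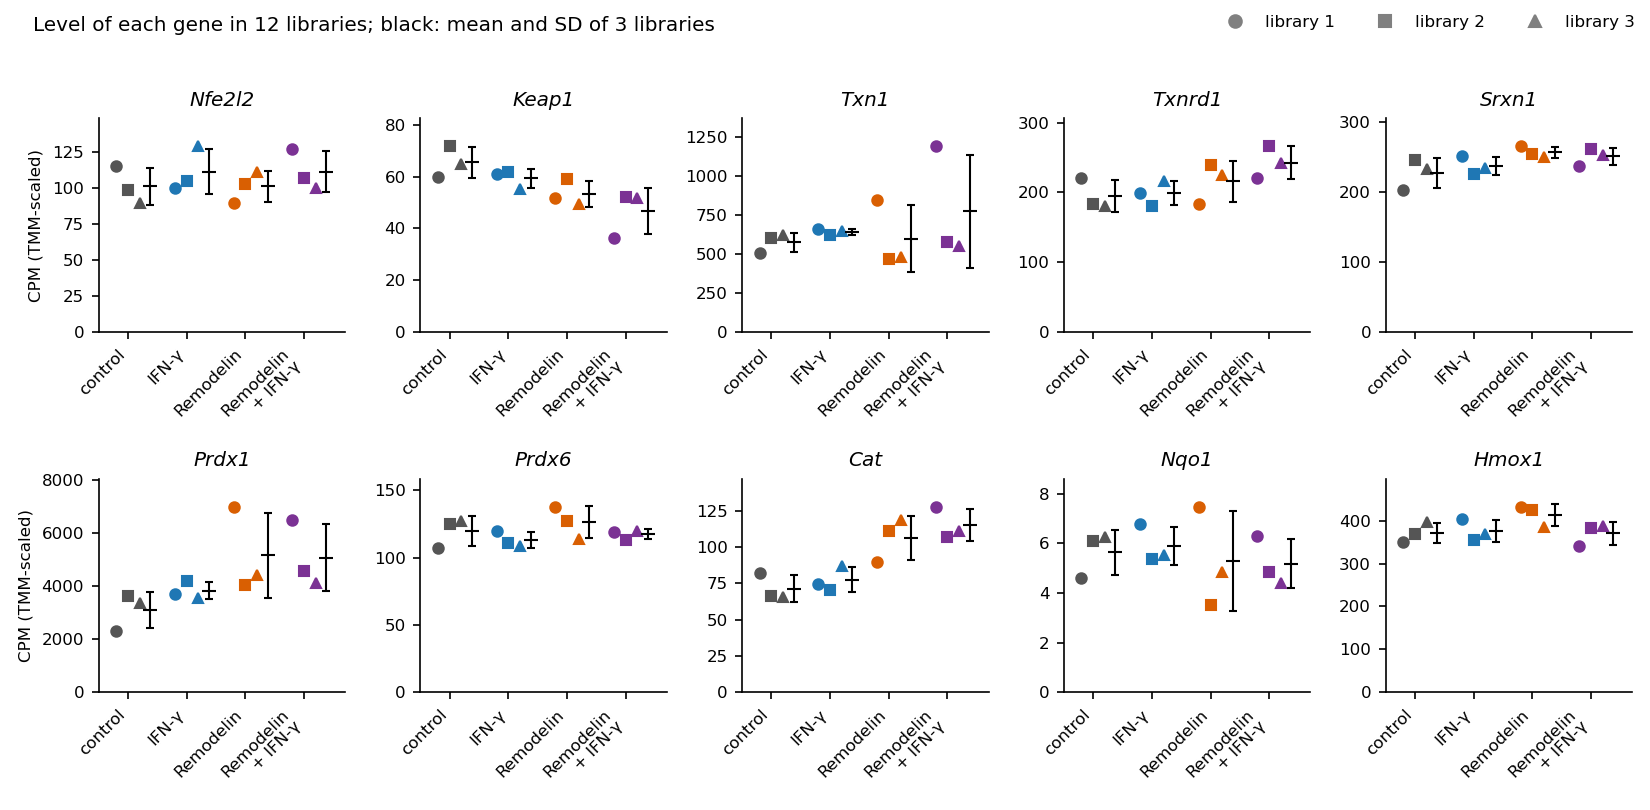
CPM of the 10 genes in the 12 libraries, with library 1 as circles, 2 as squares and 3 as triangles, and with the mean and SD of each group in black, on linear axes from 0. All 6 Cat values with Remodelin (89.4 to 128 CPM) lie above all 6 without it (65.6 to 87 CPM), and library 1 of each Remodelin group stands highest for Txn1 and Prdx1.

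Catalase had the clearest separation. Cat (ENSMUSG00000027187) read 82.4, 66.2 and 65.6 CPM in control libraries 1 to 3 and 74.6, 70.7 and 87 CPM with IFN-γ. It read 89.4, 111 and 119 CPM with Remodelin and 128, 107 and 111 CPM in the combined group. Every library with Remodelin was thus above every library without it, and the narrowest gap was between Remodelin library 1 and IFN-γ library 3.

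The group means of Cat were 71.4 ± 9.51 CPM in control, 77.4 ± 8.49 with IFN-γ, 106 ± 15.4 with Remodelin and 116 ± 11.1 with both. The log2 fold change with Remodelin was 0.58 ± 0.16 (SE) without IFN-γ (adjusted p = 0.103) and 0.58 ± 0.16 with IFN-γ (adjusted p = 0.112). Averaged over both, Cat rose by 0.58 ± 0.11 on the log2 scale (edgeR adjusted p = 0.00581), larger than the spread between replicates, and ranked 146th of all tested genes by p. The difference between both Remodelin effects on Cat was 0.00 ± 0.22 with an adjusted p of 1. The average call of Cat was kept in 12 of 12 fits that each left out 1 library (0.53 to 0.65, adjusted p = 0.00171 to 0.0279). It was also kept in 8 of 8 other settings, 5 of them planned and the rest chosen after seeing the data. In the comparison without IFN-γ, Cat was called by DESeq2 (0.61, adjusted p = 0.0112), with the GC trend removed (0.56, adjusted p = 0.0404) and without Remodelin library 1 (0.70, adjusted p = 0.0439). With IFN-γ present, Cat was called by DESeq2 (0.59, adjusted p = 0.0206).

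Of the peroxiredoxins, Prdx1 encodes the cytosolic enzyme that thioredoxin recycles and Prdx6 a form that uses glutathione. Prdx1 (ENSMUSG00000028691) read 2308, 3608 and 3345 CPM in control and 3710, 4191 and 3567 CPM with IFN-γ. It read 7003, 4034 and 4432 CPM with Remodelin and 6495, 4584 and 4123 CPM in the combined group. Library 1 stood far above libraries 2 and 3 in both Remodelin groups, and control library 1 was the lowest of the 12. The Remodelin group lay wholly above control, while combined library 3 lay below IFN-γ library 2.

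Prdx1 changed by 0.74 ± 0.23 (log2 ± SE) without IFN-γ (adjusted p = 0.169) and by 0.41 ± 0.23 with it (adjusted p = 0.384). In the average it rose by 0.57 ± 0.16 (edgeR adjusted p = 0.0419). The difference between the Remodelin effects was -0.33 ± 0.32 (adjusted p = 1). That average call was kept in 4 of the 12 fits with 1 library left out, those without Remodelin library 1 or 2 or combined library 2 or 3, and the adjusted p in all 12 ran from 0.039 to 0.115, with log2 values from 0.45 to 0.65. It was also lost with the GC trend removed (0.37 ± 0.18, adjusted p = 0.262). Among fits chosen after seeing the data, it was lost without both Remodelin library 1 and combined library 1 (0.34 ± 0.12, adjusted p = 0.0515). The same held with GC and length trends removed (0.40 ± 0.15, adjusted p = 0.098). The Prdx1 transcript is poor in G and C, at 42.3% (percentile 12.7 of tested genes), beside 48.7% for Cat (percentile 43.9). The promoter shown above for Prdx1 holds the searched core and that of Cat does not.

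Prdx6 stayed within a narrow range, from 107 to 138 CPM over all 12 libraries. Its group means were 119 ± 11.1 CPM in control, 113 ± 5.81 with IFN-γ, 126 ± 11.9 with Remodelin and 117 ± 4.09 with both, and the groups overlapped. The average Remodelin effect on Prdx6 was 0.07 ± 0.09 (adjusted p = 0.676).

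**Figure D3:**
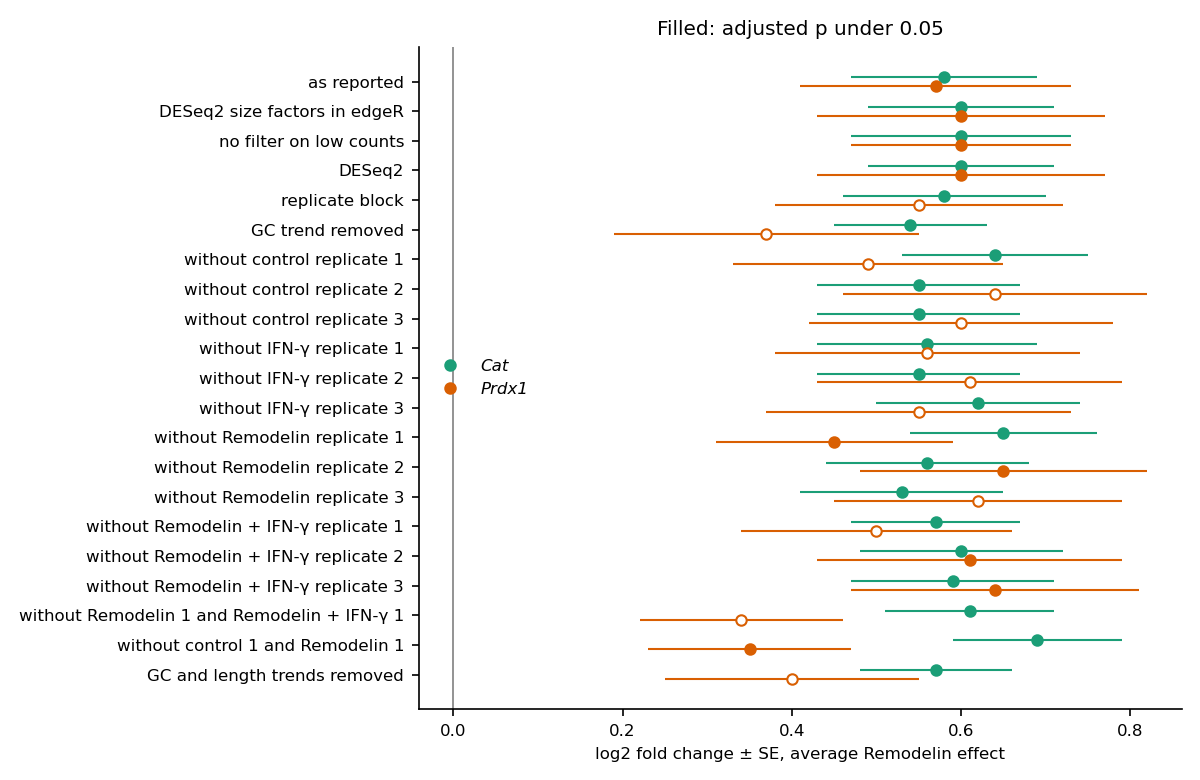
Average log2 fold change with Remodelin for Cat (green) and Prdx1 (orange), with bars of 1 SE, as reported and under every other setting, where filled points have an adjusted p under 0.05. Cat is filled throughout and stays between 0.53 and 0.69, whereas Prdx1 ranges from 0.34 to 0.65 and is open in most settings.

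Thioredoxin, its reductase and sulfiredoxin form the supply line of the peroxiredoxins. Txn1, the cytosolic thioredoxin gene, read 505, 602 and 619 CPM in control and 658, 621 and 650 CPM with IFN-γ. It read 846, 469 and 480 CPM with Remodelin and 1192, 578 and 552 CPM in the combined group. As for Prdx1, library 1 of each Remodelin group was the outlying one, and libraries 2 and 3 of the Remodelin group were below all 3 control libraries. The SD of Txn1 was 215 CPM with Remodelin and 362 CPM in the combined group, against 61.3 CPM in control. The average effect on Txn1 was 0.16 ± 0.19 (adjusted p = 0.591). Without library 1 of both Remodelin groups, a fit chosen after seeing the data, it was -0.21 ± 0.09 (adjusted p = 0.0992). No direction can be given for Txn1.

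Txnrd1 encodes the reductase that returns thioredoxin to its active form with NADPH. It read 221, 183 and 180 CPM in control, 199, 181 and 216 CPM with IFN-γ, 183, 239 and 225 CPM with Remodelin and 220, 266 and 242 CPM in the combined group. All combined libraries were above all IFN-γ libraries, but control library 1 was higher than Remodelin library 1. The change in Txnrd1 was 0.15 ± 0.15 without IFN-γ (adjusted p = 0.674), 0.29 ± 0.15 with it (adjusted p = 0.348) and 0.22 ± 0.11 on average (adjusted p = 0.199). Txnrd1 was called on average in 0 of 12 fits with 1 library left out and in 0 of 5 other planned settings. It was called only in 2 fits chosen after seeing the data. Without Remodelin library 1 and combined library 1, the lowest of their groups, it had 0.32 ± 0.09 (adjusted p = 0.0235), where 2434 genes were called. Without control library 1, the highest control, and Remodelin library 1 it had 0.32 ± 0.09 (adjusted p = 0.0192), where 3670 genes were called.

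Srxn1 encodes sulfiredoxin, which repairs peroxiredoxins that have been over-oxidised by their own substrate. It read 203, 245 and 232 CPM in control, 251, 226 and 234 CPM with IFN-γ, 265, 254 and 250 CPM with Remodelin and 237, 261 and 253 CPM in the combined group. The Remodelin libraries were all just above the control libraries, and the combined libraries overlapped with those given IFN-γ. The average effect on Srxn1 was 0.13 ± 0.09 (adjusted p = 0.375). With GC and length trends removed it was 0.27 ± 0.06 (adjusted p = 0.00576), in a fit chosen after seeing the data that called 1516 genes.

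Of the regulator pair, neither gene passed the test. Nfe2l2 read 115, 98.8 and 89.8 CPM in control, 100, 105 and 129 CPM with IFN-γ, 89.4, 103 and 111 CPM with Remodelin and 127, 107 and 100 CPM in the combined group. All 4 groups overlapped, and the fold with Remodelin was 0.997 without IFN-γ (adjusted p = 0.994), 0.999 with it (adjusted p = 0.998) and 0.998 on average (adjusted p = 0.992), with an SE of 0.11 for the average on the log2 scale.

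Keap1, the gene of the NRF2 inhibitor, read 59.8, 71.8 and 65 CPM in control, 61, 62 and 55.2 CPM with IFN-γ, 51.7, 59.1 and 49.5 CPM with Remodelin and 36.3, 52 and 51.7 CPM in the combined group. Each Remodelin group lay below the group that it was compared with, and combined library 1 was lowest. The log2 fold change of Keap1 was -0.30 ± 0.16 without IFN-γ (adjusted p = 0.449), -0.35 ± 0.16 with it (adjusted p = 0.296) and -0.32 ± 0.11 on average (adjusted p = 0.0905), which did not pass the test. The transcript of Keap1 is rich in G and C, at 58% (percentile 90.7), and with the GC trend removed the average was -0.13 ± 0.08 (adjusted p = 0.336). It was called in 1 of 8 settings other than single left-out libraries, without control library 1 and Remodelin library 1 (-0.34 ± 0.12, adjusted p = 0.0447). That fit was chosen after seeing the data and called 3670 genes.

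Nqo1 and Hmox1, which encode a quinone reductase and the heme-degrading oxygenase, are often read as markers of NRF2 activity, although Hmox1 also answers to heme through BACH1. Nqo1 read 4.6, 6.08 and 6.24 CPM in control, 6.79, 5.37 and 5.55 CPM with IFN-γ, 7.49, 3.52 and 4.85 CPM with Remodelin and 6.3, 4.85 and 4.42 CPM in the combined group. Remodelin libraries held both the highest and the lowest value of Nqo1. Its average effect was -0.14 ± 0.18 (adjusted p = 0.641).

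Hmox1 read 350, 370 and 396 CPM in control, 404, 354 and 369 CPM with IFN-γ, 433, 424 and 385 CPM with Remodelin and 340, 383 and 388 CPM in the combined group. Its highest values were Remodelin libraries 1 and 2, and its lowest was combined library 1. The change in Hmox1 was 0.15 ± 0.13 without IFN-γ (adjusted p = 0.629), -0.02 ± 0.13 with it (adjusted p = 0.949) and 0.07 ± 0.09 on average (adjusted p = 0.668).

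**Figure D4:**
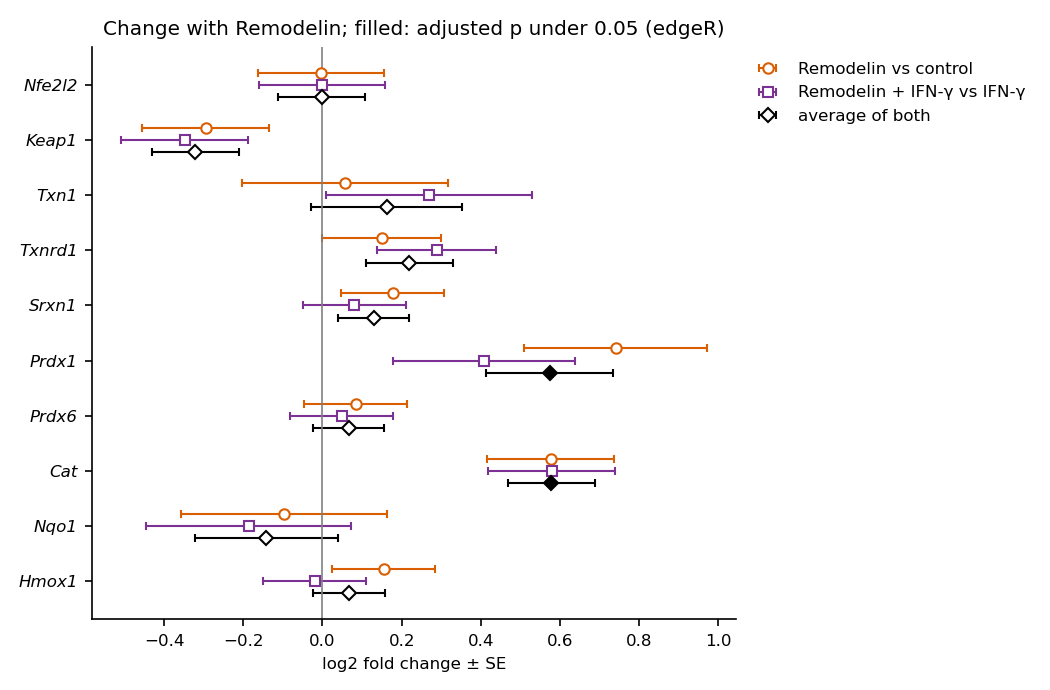
Log2 fold change with Remodelin of the 10 genes, with bars of 1 SE, without IFN-γ (circles), with IFN-γ (squares) and as the average of both (diamonds), where filled points have an adjusted p under 0.05. The filled points are the averages of Cat (0.58) and Prdx1 (0.57), and Keap1 lies furthest below 0 (-0.32 on average).

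Near-identical copies took almost no reads in this table. The thioredoxin pseudogene Txn-ps1 held 1 count over all libraries, and Prdx1-ps, Prdx6b and Prdx6-ps2 held 0. The treatment of reads that fit several genes is not stated in the labels.

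IFN-γ was compared with its absence without and with Remodelin, and no member was called in either comparison. Without Remodelin, 0 of 10 passed the edgeR test against 0.0148% of all tested genes. At an unadjusted p under 0.05 there were 0 members beside 724 genes, and DESeq2 called 0 members beside 4 genes. The changes ran from -0.14 ± 0.16 for Keap1 to 0.31 ± 0.23 for Prdx1 (adjusted p = 0.929 and 0.889), and Txn1 (0.16 ± 0.26, adjusted p = 0.953) was the one of 10 members whose groups did not overlap, with all IFN-γ libraries above control, where 17.7% of all tested genes did not overlap. With Remodelin, 0 of 10 passed against 0% of all tested genes, where 1043 genes had an unadjusted p under 0.05 and DESeq2 called 1 gene, while 0 members had such a p and DESeq2 called 0. There the values ran from -0.19 ± 0.16 for Keap1 to 0.37 ± 0.26 for Txn1 (adjusted p = 0.733 and 0.702), and 0 of 10 members had groups that did not overlap, against 9.48% of all tested genes. The comparisons of Remodelin with control and of IFN-γ with control share the control libraries, and those with the combined group share its libraries.

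Whether the Remodelin effect differed between cells without and with IFN-γ was tested as an interaction. It called 0 of 10 members against 0.00742% of all tested genes. At an unadjusted p under 0.05 there were 0 members beside 310 genes, and DESeq2 called 0 members beside 1 gene. The furthest interaction values were -0.33 ± 0.32 for Prdx1 and 0.21 ± 0.37 for Txn1.

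Other genes of the same pathways were read from 4 lists. Of all 13474 tested genes, 302 rose and 647 fell in the average, 7.04% in either direction. Of the 28 tested among 30 other NRF2 target genes, 6 rose with Remodelin in the average, 0 fell and 22 did not pass, with a median of 0.14 beside 0.03 over all tested genes. The glutathione transferase gene Gsta3 rose from 1.57, 2.01 and 3.2 CPM in control to 6.91, 5.99 and 6.87 CPM with Remodelin, and from 1.19, 1.75 and 1.14 CPM with IFN-γ to 7.99, 4.28 and 5.24 CPM with both. Its average was 1.82 ± 0.22 (adjusted p = 0.000138). No library overlapped between cells with and without Remodelin, as for 4.65% of all tested genes.

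Gclm, the regulatory subunit of the enzyme that starts glutathione synthesis, rose by 0.83 ± 0.10 (adjusted p = 0.000227). Slc7a11, the cystine importer that feeds the same pathway, rose by 0.96 ± 0.17 (adjusted p = 0.00332), and the aldo-keto reductase gene Akr1b8 by 0.55 ± 0.12 (adjusted p = 0.0146). These 4 were called in 12 of 12 fits with 1 library left out. Whether these target genes differ from the 10 was not tested.

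Of 22 other thioredoxin and peroxiredoxin genes, 1 rose, 2 fell and 19 did not pass, with a median of -0.10. Txnip, whose protein binds and inhibits thioredoxin, fell from 156, 146 and 178 CPM in control to 78.1, 78.4 and 70.7 CPM with Remodelin, and from 177, 158 and 159 CPM with IFN-γ to 84.7, 79.5 and 78.6 CPM with both. Its average was -1.05 ± 0.09 (adjusted p = 1.18e-05), the third smallest p of all tested genes. Here too no library overlapped, against 4.65% of all tested genes. The stress-induced sestrin gene Sesn2 rose by 0.57 ± 0.12 (adjusted p = 0.0109), and the methionine sulfoxide reductase gene Msrb2 fell by 0.62 ± 0.17 (adjusted p = 0.0364), a call kept in 3 of 12 fits with 1 library left out. The other peroxiredoxins did not pass: Prdx2 had -0.01 ± 0.13, Prdx3 0.17 ± 0.15, Prdx4 -0.09 ± 0.15 and Prdx5 -0.02 ± 0.13, and neither did the mitochondrial pair Txn2 (-0.11 ± 0.12) and Txnrd2 (-0.38 ± 0.15).

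Of 16 partners, competitors and degradation factors of NRF2, 0 rose and 1 fell, with a median of -0.06. This was Dpp3, a peptidase that binds KEAP1, at -0.36 ± 0.10 (adjusted p = 0.0475), and its call was kept in 3 of 12 fits with 1 library left out. Of 11 tested superoxide, peroxide and heme enzymes, 0 rose and 1 fell, with a median of -0.07. This was Sod3, the extracellular superoxide dismutase, at -0.83 ± 0.24 (adjusted p = 0.0432), also kept in 3 of 12. In the comparisons of IFN-γ and in the interaction, edgeR called 0 genes of these 4 lists.

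**Figure D5:**
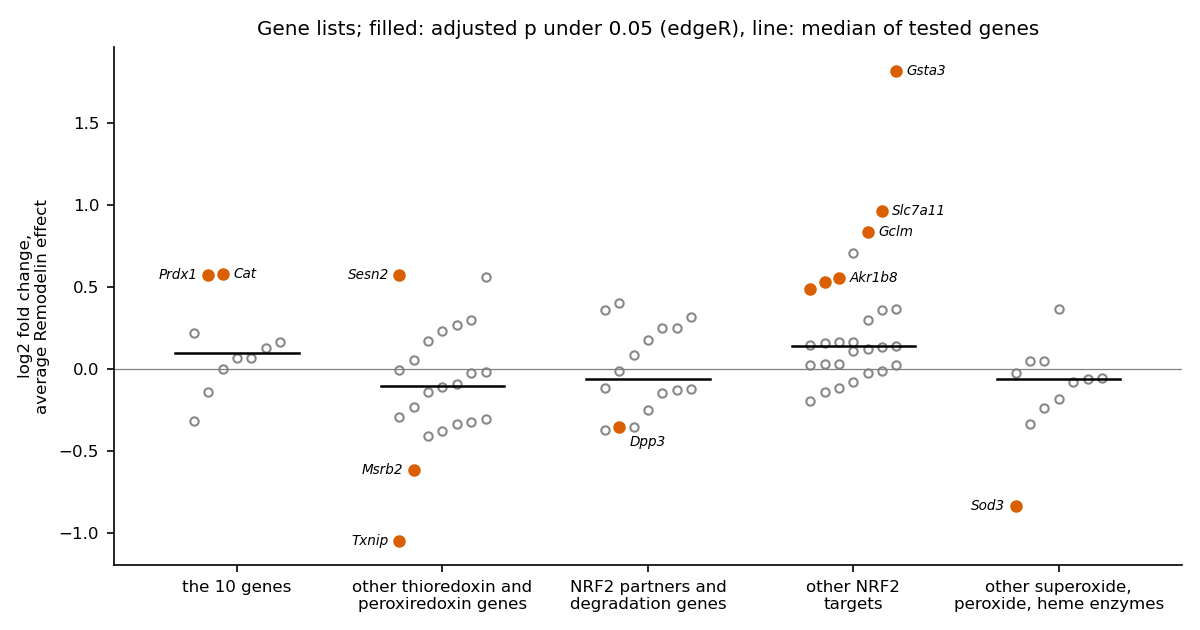
Average log2 fold change with Remodelin of the tested genes of 5 lists, each point 1 gene, filled at an adjusted p under 0.05, with a bar at each list's median. Txnip (-1.05) lies lowest and Gsta3 (1.82) highest, and the medians run from -0.10 to 0.14.

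Markers of other peritoneal cells were read beside these changes. Their counts stand against 647 lower and 302 higher of 13474 tested genes in the average. Of 10 mesothelial and stromal markers, 4 fell with Remodelin on average (Upk3b, Upk1b, Krt19 and Col3a1) and 0 rose. Of the 10, 2 were above 0, the highest at 0.64. Mean Msln was 0.935 CPM in control, 0.795 with IFN-γ, 1.3 with Remodelin and 1.39 with both. Mean Krt18 was 1.71, 2.65, 3.5 and 3.03 CPM in the same order. None of the 10 was at 0 in any library. The 10 summed to 292 to 457 CPM in control, 231 to 284 with IFN-γ, 152 to 280 with Remodelin and 142 to 279 with both. Of 4 tested neutrophil markers 1 fell (Mmp8), Ly6g was at 0 in 11 libraries, and the sums were 49.1 to 59.7, 57.2 to 62.1, 46.1 to 47.8 and 47.9 to 49.4 CPM in the same order. The red cell membrane gene Slc4a1 was at 0 in 12 libraries, and red cell markers summed to at most 14.9 CPM, in a control library. The sums over all libraries were 42.8 to 68.9 CPM for B cell, 209 to 519 for dendritic cell and 1.62 to 3.34 for T cell markers. Mast cell markers summed to 4.01 to 4.75 CPM in control, 3.2 to 3.79 with IFN-γ, 1.91 to 3.11 with Remodelin and 1.25 to 2.81 with both. Libraries with Remodelin were thus all lower, but the margin of 3.11 against 3.2 CPM was less than 3 counts. Among single tested genes 4.65% did not overlap between these libraries. By edgeR 0 of 2 tested markers were called (Cma1 -1.02 ± 0.36, adjusted p = 0.0937, and Tpsb2 -0.46 ± 0.24, adjusted p = 0.222). Of the mast cell markers, Mcpt4 was at 0 in 5 libraries, Kit in 2 and Cpa3 in 1. The part of mesothelial, stromal, neutrophil or mast cell RNA in the changes of Cat and Prdx1 was not tested.

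The authors' deposited table gives its own comparisons, made by a method that the file headers and labels do not name. In the authors' deposited table Cat had a log2 fold change of 0.52 for Remodelin against control (adjusted p = 0.0749) and of 0.52 for the combined group against IFN-γ (adjusted p = 0.00695). Prdx1 had 0.60 (adjusted p = 0.109) and 0.35 (adjusted p = 0.159) in the authors' deposited table, and Keap1 had -0.24 (adjusted p = 0.648) and -0.30 (adjusted p = 0.232), in the same order. For the combined group against control, the authors' deposited table gives 0.63 for Cat (adjusted p = 0.0102), 0.62 for Prdx1 (adjusted p = 0.0358) and -0.44 for Keap1 (adjusted p = 0.0963).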

How the data were processed

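RNA from 12 libraries of mouse peritoneal macrophages was sequenced, and groups and replicate numbers were taken from the labels. The authors' deposited table holds read counts per gene, with the FPKM values, log2 fold changes and p-values that the authors computed, per the file headers. The submitters' processing notes list featureCounts 1.5.0-p3, CASAVA 1.8 and HISAT2 2.0.5, without a role or order. Build, annotation, strand setting and the handling of multi-mapping reads: not given in the sources used here. No coordinates of the table are therefore printed. The authors' group means beside their comparisons were not used.

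The quasi-likelihood test of edgeR 4.0.16 (R 4.3.3) was run on TMM-scaled counts after edgeR's default filter, which left 13474 genes, with all 12 libraries in 1 fit of group means. P-values were adjusted over all tested genes by the Benjamini-Hochberg method. Fold changes are fitted log2 ratios of scaled counts with their SE. The floor of 3 counts covers counting error only, as the reads carry no molecular identifiers stated in the labels and need not be independent molecules. FPKM was used for levels between genes only, and its library denominators were 0.954 to 1.02 times the TMM-scaled totals. Libraries of a group differed by more than sampling noise (chi-square per degree of freedom 7.75 to 84.3), so none was a duplicate. GC content and length were taken from the longest GRCm38 transcript of each gene, known for 99% of tested genes and all 10 members.

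The 10 members, 4 pathway lists and 8 marker lists were chosen with earlier results of these data known. The average Remodelin effect was also taken up with such results known. Named beside the members were up to 4 genes per pathway list with the smallest p among those called in the average Remodelin effect. Peroxiredoxins and mitochondrial thioredoxin genes, other macrophage markers and called markers were named after their values were seen. Alternatives were DESeq2 size factors, no count filter, DESeq2 1.42.0, a replicate block, a GC correction, a fit of only the groups compared, and leaving out single libraries. The main edgeR fit was also run on simulated data, and the alternatives were not.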

Additional observations from a re-analysis of the deposited data

How the results depend on the processing

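In the average, 949 genes were called (302 higher, 647 lower), with 1406 without a count filter (778 higher, 628 lower), 1378 by DESeq2 (604 higher, 774 lower), 578 under a replicate block and 304 to 2025 with 1 library left out. Chosen after seeing the data were fits without Remodelin 1 and combined 1 (2434, of which 1196 higher), without control 1 and Remodelin 1 (3670, of which 1853 higher) and with GC and length trends removed (1516, of which 666 higher and 850 lower). Members called there numbered 2, with 1 under the block and with the GC trend removed, 1 to 2 with 1 library left out, and 4 (3 higher, 1 lower) without control 1 and Remodelin 1.

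For Remodelin against control, 114 genes were called (26 higher, 88 lower), with 283 without a filter (141 higher, 142 lower), 269 by DESeq2 (94 higher, 175 lower), 58 under the block, 187 with the GC trend removed (63 higher, 124 lower), 22 with these groups alone and 20 to 105 with 1 library left out. The 3 later fits gave 743, 1859 and 411 (172 higher, 239 lower) in the order above. Members called were 0, with 1 without a filter (Prdx1), by DESeq2, with the GC trend removed and in the first 2 later fits, 2 in the last, and 0 to 1 with 1 library left out. With IFN-γ, 49 genes became 271, 264, 24 (block), 84 (these groups alone) and 10 to 26, and 109, 469 and 362 in the later fits, while members called went from 0 to 1 by DESeq2 and in the last 2 later fits.

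IFN-γ against control called 2 genes, with 1 under DESeq2 size factors, the block, the GC correction and the last 2 later fits, 52 without a filter, 4 by DESeq2, 21 with these groups alone, 16 without Remodelin 1 and combined 1 and 1 to 2 with 1 library left out. The combined group against Remodelin called 0, with 6 without a filter and 1 by DESeq2 and in the first later fit. The interaction called 1, with 19 without a filter, 0 after either trend correction, 2 in the first later fit and 0 to 1 with 1 library left out.

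Over 1000 values of the members under alternatives, 12 lost and 15 gained a call, and 69 had the other sign, of which 0 were called. Same-numbered libraries did not pair: correlations of their deviations ran from -0.547 to 0.261 5 of 18 were over 0.1, and a library's best match in another group had its own number in 11 of 36 checks. The block left Prdx1 at 0.55 ± 0.17 in the average (adjusted p = 0.0829). Nqo1, with at most 120 reads in a library, had the fewest reads of the members and so the largest counting error.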
